A study of Mus musculus with 2 samples.

Results

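Areg is 1 of the 32285 genes counted in both single-cell libraries of the study, and it was taken by its symbol (ENSMUSG00000029378). In the GENCODE vM21 annotation of mouse build mm10 it lies on the + strand of chromosome 5, from 91139599 to 91148432, with 1 transcript of 6 exons. The study profiled CD4 T cells from visceral fat, comparing mice with and without the costimulatory receptor CD27. The WT library and the CD27_KO library each hold TCRb+ CD4+ cells sorted from the pooled stromal vascular fraction (the non-adipocyte cells of the fat). The labels speak of 10 pooled mice without saying whether that number is per library, give C57BL/6 as the genotype of both, and state neither age nor sex. With 1 library of pooled mice in each group there is no replicate check and no test between the groups. All intervals given are exact 95% intervals that cover counting error only, and any difference between the mice, the sorts or the library preparations cannot be told apart from the genotype.

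Areg encodes amphiregulin, a ligand of the epidermal growth factor (EGF) receptor family. It is made as a membrane-bound precursor and released by the protease ADAM17, and it acts on epithelial and stromal cells during tissue repair. Among CD4 T cells it is known from regulatory T cells (Treg) of tissues, which carry the transcription factor Foxp3, and from T helper 2 (Th2) cells, which carry Gata3. Both can bear ST2, the receptor for the alarmin IL-33, which the gene Il1rl1 encodes.

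The 250 bases before the Areg start site are shown because genes of factors that bind such sites are described below in cells with and without Areg transcripts. They come from the RefSeq promoter table of build GRCm38.p6, chr5:91139349-91139598, + strand, with a cyclic AMP response element and a TATA box in capitals.
Areg promoter: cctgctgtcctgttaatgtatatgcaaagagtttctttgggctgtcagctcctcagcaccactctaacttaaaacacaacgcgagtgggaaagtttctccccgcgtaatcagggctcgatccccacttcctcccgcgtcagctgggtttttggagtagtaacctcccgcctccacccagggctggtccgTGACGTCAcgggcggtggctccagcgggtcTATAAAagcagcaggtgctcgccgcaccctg
The response element, searched as TGACGTCA on both strands, begins 61 bases before the start site, and 508 of the 32851 windows of this length in the table (1.55%) hold it. The TATA box, searched as TATAAA on the gene's strand, begins 31 bases before the start and is in 7.59% of windows. The letters of the AP-1 site TGACTCA and of the GATA site AGATAA did not occur in this window on either strand, and they occur in 4.46% and 9.99% of all windows. A match is a stretch of letters, and binding was not measured.

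After filtering, 6202 WT and 6788 CD27_KO T cells remained, with a median of 1930.5 and 2200 unique molecular identifiers (UMIs, each one counted transcript molecule) per cell. Cd27 itself had 2072 UMIs in WT and 15 in CD27_KO T cells. The sort was checked with T cell genes: 97.4% and 98.5% of these cells carried Cd3e, Cd3g or Trac UMIs, and 25.3% and 30.8% carried Cd4. Clusters whose best-scoring marker list was one of other cell types held 136 and 65 cells and were left out. Cells in them could still carry T cell transcripts, such as Cd3e in 61.8% of the WT plasmacytoid dendritic-like cluster. The 2 libraries shared 12 cell barcodes. The doublet caller Scrublet marked no cell in either library, so doublets were not removed.

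Areg was seen in a minority of T cells, at high numbers in a few of them, and at a lower level in the CD27_KO library. There were 7480 Areg UMIs in WT and 3563 in CD27_KO T cells, which is a level of 473 (462 to 484) and 180 (174 to 186) CPM, counts per 1000000 UMIs of the same cells. The CD27_KO level was 2.62-fold lower, a log2 difference of -1.39 (-1.45 to -1.33). At least 1 Areg UMI was seen in 983 WT cells (15.8%, 14.9 to 16.8%) and in 580 CD27_KO cells (8.54%, 7.89 to 9.23%). Areg-positive cells held a mean of 7.61 Areg UMIs in WT and 6.14 in CD27_KO, with medians of 4 and 3 and highest values of 67 and 77. The share of positive cells therefore differed more between the libraries than the number of UMIs in a positive cell, by log2 -0.89 against -0.31. The 1% of cells with most Areg UMIs held 28.3% of all Areg UMIs in WT and 45.5% in CD27_KO, and 50% of them lay in 152 WT and 81 CD27_KO cells. Among 9754 genes with at least 100 UMIs over both libraries, 2.86% were at least 1.5-fold lower and 7.02% at least 1.5-fold higher in CD27_KO T cells. Areg was at rank 73 from the lowest, and the median gene was at log2 0.17.

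Naive-like cells, which should lack Areg, set the background of free RNA. In that cluster 0.611% of WT and 0.315% of CD27_KO cells had an Areg UMI, at a median depth of 1857 and 2075 UMIs.

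The T cells were then split into 4 sets by whether they had at least 1 UMI of Foxp3 and of Il1rl1. Areg was highest in cells with both transcripts, next in cells with Il1rl1 alone, then in cells with Foxp3 alone, and lowest in cells with neither, in both libraries. In each of the 4 sets the CD27_KO level was below the WT level. These sets follow detected transcripts, and a cell without a UMI of a gene may still express it.

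Cells with both Foxp3 and Il1rl1 numbered 392 in WT and 159 in CD27_KO. Their Areg level was 1481 (1428 to 1536) CPM in WT and 770 (719 to 824) in CD27_KO, a log2 difference of -0.94 (-1.06 to -0.83). This difference was -0.35 with cells and gates thinned to 2000 UMIs, -0.57 with both gate genes at 2 UMIs or more and -0.51 without the unnamed cluster 5 described below, which was left out after its values were seen. An Areg UMI was seen in 72.4% (67.7 to 76.8%) of the WT and 55.3% (47.3 to 63.2%) of the CD27_KO cells. The positive cells held a mean of 10.2 and 9.49 UMIs (medians 7 and 6), the highest of the 4 sets. Here 107 of 4019 genes (2.66%) were at least 1.5-fold lower in CD27_KO, and Areg was at rank 46 from the lowest. These cells were also the deepest, at a median of 3890 and 5528 UMIs. With each cell thinned to 1300 UMIs, 56.1% and 38.0% kept an Areg UMI, and the mean in a positive cell was 4.60 and 3.64.

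Cells with Il1rl1 and without Foxp3 numbered 938 in WT and 1735 in CD27_KO, and they held 46.9% and 61.9% of each library's Areg UMIs. Their level was 1139 (1102 to 1178) CPM in WT and 331 (318 to 345) in CD27_KO, a log2 difference of -1.78 (-1.86 to -1.70). An Areg UMI was seen in 49.0% (45.8 to 52.3%) of the WT and 19.6% (17.8 to 21.5%) of the CD27_KO cells, and in 39.4% and 14.3% after thinning. The mean number in a positive cell was 7.63 and 6.49 UMIs. At least 1.5-fold lower levels were found for 225 of 7259 genes (3.1%), among which Areg was at rank 43. Markers of other ST2-bearing cells were looked for in this set. Of 6 mast cell and basophil markers, 5 were at 0 in both libraries. The 8 markers of innate type 2 cells, of which T cells also express Gata3, Il7r, Calca and Rnf128, summed to 1697 CPM in WT and 2255 in CD27_KO, and their part in the Areg difference was not tested.

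Cells with Foxp3 and without Il1rl1 numbered 216 and 158. Their Areg level was 523 (468 to 583) and 130 (101 to 163) CPM, a log2 difference of -2.01 (-2.40 to -1.64). The difference was -1.11 thinned to 2000 UMIs and -1.04 with equal cluster shares, a weighting described below. Areg was at rank 5 from the lowest of 1655 genes, of which 2.96% were at least 1.5-fold lower. Positive cells made up 26.9% and 13.9%, with a mean of 5.66 and 3.27 UMIs. The 5 cells with most Areg UMIs held 36.9% of the WT and 52.8% of the CD27_KO UMIs of this set, so its levels rest on few cells.

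Cells with neither transcript, 4656 and 4736 in number, had 73.5 (68.3 to 79.0) and 39.1 (35.6 to 42.9) CPM of Areg, a log2 difference of -0.91 (-1.08 to -0.74), which was -0.46 in cells with at least 1000 genes. Areg was seen in 3.89% (3.35 to 4.48%) and 2.74% (2.30 to 3.25%) of them, above the share in naive-like cells. In this comparison 182 of 8860 genes (2.05%) were at least 1.5-fold lower. The direction depended on how Treg cells were marked. When cells with the Treg factor Ikzf2 were also set aside, the remaining cells were at log2 0.17. In cells with neither Ikzf2 nor the Treg receptor gene Ctla4, the levels were 25.5 and 29.2 CPM, a log2 difference of 0.20 (-0.09 to 0.49) whose interval includes 0. In those with Ikzf2 or Ctla4 they were 162 and 65.7, a difference of -1.30 (-1.54 to -1.07).

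**Figure D1:**
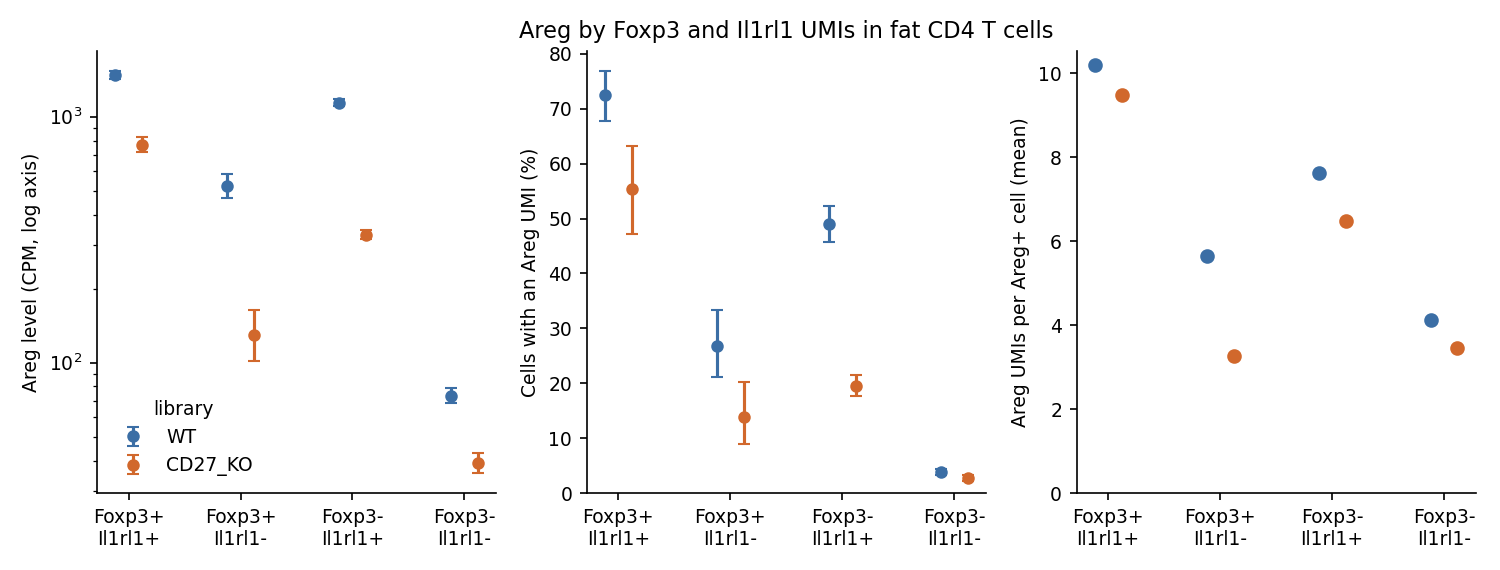
Areg in the 4 sets of T cells by library: CPM (left, log axis), share of cells with an Areg UMI in percent (middle), and mean Areg UMIs in Areg-positive cells (right), with exact 95% intervals for counting error where drawn. WT lies above CD27_KO in each set, from 1481 against 770 CPM in Foxp3+ Il1rl1+ cells to 73.5 against 39.1 in cells with neither transcript, and the mean UMIs of a positive cell lie closer together than the shares.

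The number of Areg UMIs in a positive cell varied widely inside each set. In Foxp3+ Il1rl1+ cells of WT, 13.7% of the positive cells had 1 Areg UMI and 39.4% had 10 or more. In the same cells of CD27_KO those shares were 17.0% and 33.0%. In Foxp3- Il1rl1+ cells 28.0% of the positive WT and 22.1% of the positive CD27_KO cells had 10 or more. In cells with neither gate transcript 43.6% and 50% of the positive cells had 1 UMI, and 10.5% and 8.46% had 10 or more. Leaving out the 5 cells with most Areg UMIs moved the log2 difference in Foxp3+ Il1rl1+ cells from -0.94 to -1.25. In that set 28.7% of the CD27_KO UMIs were in those 5 cells. They are a larger part of the 159 CD27_KO than of the 392 WT cells.

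**Figure D2:**
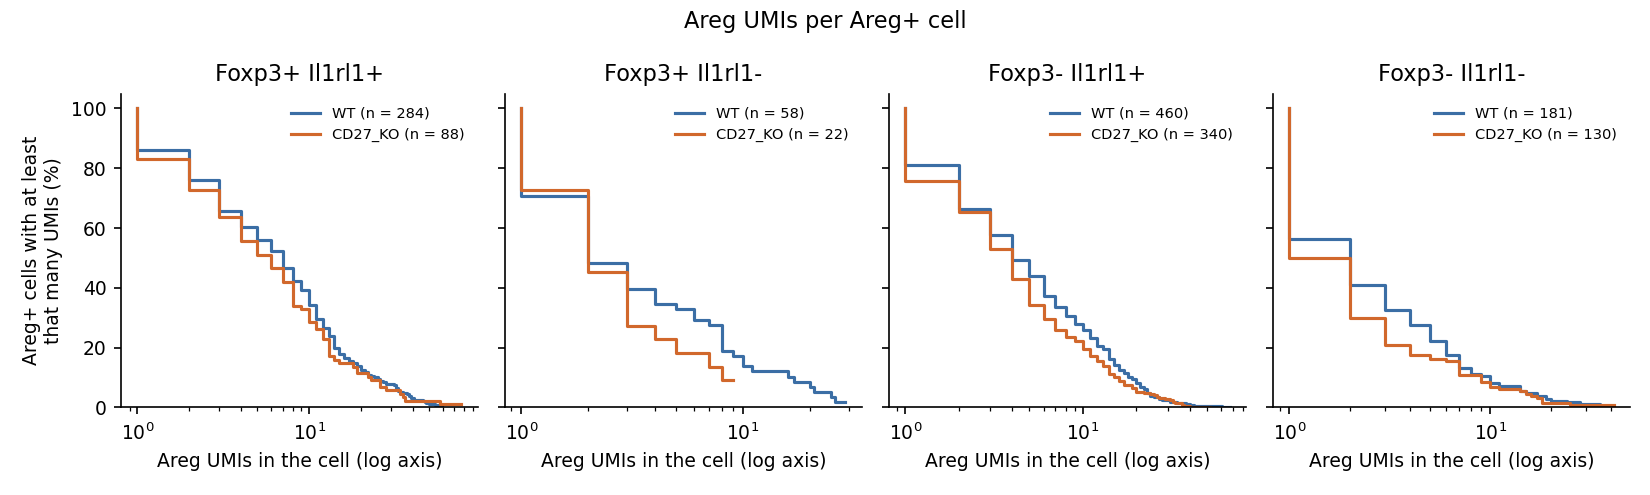
Share of Areg-positive cells (percent) that hold at least a given number of Areg UMIs (log axis), by set and library; n is the number of positive cells. The curves of the 2 libraries run close together in Foxp3+ Il1rl1+ cells, where 39.4% of WT and 33.0% of CD27_KO positive cells have 10 or more UMIs, and lie further apart in Foxp3+ Il1rl1- cells, where no CD27_KO cell has 10. The UMIs are not thinned, and Foxp3+ Il1rl1+ cells were deeper in CD27_KO, at a median of 5528 against 3890 UMIs in WT.

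Areg was higher in cells with Il1rl1 whether or not they had Foxp3, and higher in cells with Foxp3 whether or not they had Il1rl1, in both libraries. Among Foxp3-positive cells, those with Il1rl1 had a 2.83-fold (2.52 to 3.18) higher Areg level in WT and a 5.94-fold (4.67 to 7.67) higher one in CD27_KO. There Areg was at rank 22 from the highest of 3413 genes in WT, of which 8.76% were at least 1.5-fold higher, and at rank 4 of 2453 genes in CD27_KO, of which 7.54% were. Among Foxp3-negative cells the ratio between cells with and without Il1rl1 was 15.5-fold (14.3 to 16.8) in WT and 8.48-fold (7.65 to 9.40) in CD27_KO. Among Il1rl1-positive cells, those with Foxp3 exceeded those without by 1.30-fold (1.24 to 1.37) in WT and by 2.32-fold (2.14 to 2.52) in CD27_KO. Among Il1rl1-negative cells the ratio between those with and without Foxp3 was 7.12-fold (6.23 to 8.12) in WT and 3.31-fold (2.55 to 4.26) in CD27_KO.

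Over all cells of a Foxp3 set, the step in Areg lay between no Il1rl1 UMI and 1, and differences between the further bins were smaller. In WT Foxp3-negative cells the Areg level was 73.5 CPM without Il1rl1, 1139 at 1 Il1rl1 UMI, 940 at 2, 1155 at 3 to 5 and 1521 at 6 or more. In CD27_KO Foxp3-negative cells it was 39.1 without Il1rl1, 235 at 1 UMI, 301 at 2, 398 at 3 to 5 and 366 at 6 or more. In WT Foxp3-positive cells it was 523 without Il1rl1 and between 1362 and 1676 in the other bins, with no order among them. In CD27_KO Foxp3-positive cells it was 130 without Il1rl1 and between 457 and 924 in the other bins. At every number of Il1rl1 UMIs the CD27_KO level was below the WT level, so that CD27_KO cells with 6 or more Il1rl1 UMIs and no Foxp3 stood below WT cells with 1. The bins also differ in depth, since cells with 6 or more Il1rl1 UMIs had medians of 4739 (WT) and 4986 (CD27_KO) UMIs against 2006 and 2501.5 at 1 UMI. They differ in cell types too, and naive-like cells were 27.8% of the WT Foxp3-negative cells without Il1rl1. Within the Th2-like cluster described below, Areg at 0 and 1 Il1rl1 UMI was 715 and 764 CPM in WT, and 326 and 401 in CD27_KO. Treg-like cluster 6 cells without Il1rl1 were at 1843 and 968, and those with it at 2311 and 2222. The part of cell types in the step was not tested.

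**Figure D3:**
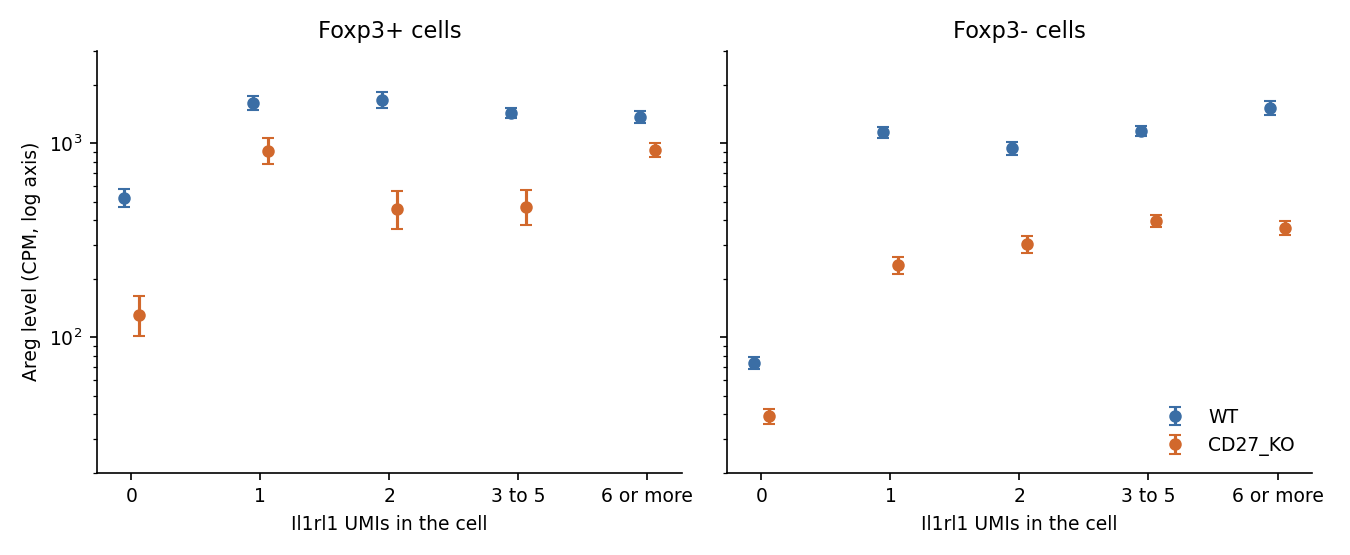
Areg level (CPM, log axis) by the number of Il1rl1 UMIs in the cell, for Foxp3-positive (left) and Foxp3-negative T cells (right), with exact 95% intervals for counting error. In Foxp3-negative cells the level goes from 73.5 to 1139 between 0 and 1 Il1rl1 UMI in WT and from 39.1 to 235 in CD27_KO, and changes less over the further bins.

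The relation of Areg to Gata3, the Th2 factor that fat Treg also express, differed between the sets of cells. In WT Foxp3+ Il1rl1+ cells, those with a Gata3 UMI had 1279 and those without had 2418 CPM of Areg. In CD27_KO the order was the other way, 791 against 584, a log2 difference of 0.44 (0.07 to 0.83) with only 24 cells without Gata3. In Foxp3- Il1rl1+ cells the levels with and without Gata3 were 1119 and 1191 in WT, a log2 difference of -0.09 (-0.19 to 0.02), and 354 and 224 in CD27_KO, a difference of 0.66 (0.48 to 0.86). In the Th2-like cluster described next, cells with 3 to 5 Gata3 UMIs had higher Areg levels than cells with none in both libraries. In WT, Areg there was 492 CPM at no Gata3 UMI, 879 at 1, 1276 at 2 and 1305 at 3 to 5. In CD27_KO it was 323 at no Gata3 UMI, 348 at 1, 325 at 2, 553 at 3 to 5 and 946 at 6 or more.

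All T cells of both libraries were clustered together with Areg left out of the clustering genes, and the clusters were named by marker lists. Treg-like cluster 6, with all 7 Treg markers enriched and led by Cxcl2, Il10, Mt1 and Gzmb beside Areg, had the highest Areg level in both libraries. It reached 2235 (2170 to 2301) CPM in WT and 1752 (1604 to 1909) in CD27_KO, a log2 difference of -0.35 (-0.49 to -0.22). This became -0.85 (-1.02 to -0.69) without the 5 cells with most Areg UMIs in each library. Those 5 are a larger part of the 117 CD27_KO than of the 741 WT cells. Without the highest 10% of cells it was -0.74 (-0.94 to -0.54). Th2-like cluster 9, led by Calca, Tnfsf11, Csf2, Il4 and Il5, followed with 920 (852 to 992) and 457 (433 to 481), a difference of -1.01 (-1.14 to -0.88). That difference was -0.71 (-0.87 to -0.56) without the 5 highest cells and -1.93 (-2.26 to -1.60) without the highest 10% of cells, in each library. Those 10% were 30 WT and 115 CD27_KO cells, where 87 and 216 were Areg-positive. This trim thus took a larger part of the positive cells in CD27_KO. Cluster 5 was next with 641 (613 to 670) and 339 (320 to 357), and its cells were deep, at medians of 4728 and 5820 UMIs. It was led by Ikzf2, Hdc, Foxp3 and Il1rl1, with 6 of 7 Treg markers enriched (list median log2 0.91). It stayed unnamed because the Th2 list, with 3 markers enriched (0.48), reached 0.5 of that value. Whether cluster 5 holds doublets cannot be told apart from cells that express both sets of genes. The second Treg-like cluster, 10, in which 8% of WT and 6.15% of CD27_KO cells had Il1rl1, had only 245 (198 to 300) and 94.3 (66.4 to 130).

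The other T cell clusters had lower levels or few Areg cells. The interferon-response cluster was at 324 (208 to 482) in WT from 3 positive cells, an interval that overlaps that of Treg-like cluster 10. The cluster with natural killer receptors (118 and 23.4), the cycling cluster (108 and 62.4), cluster 7, led by Csf2 and Bcl2a1d (68.6 and 99.0), and the Th17-like cluster (47.5 and 5.46) came next, with overlapping neighbours in WT. In cluster 7 alone of these the CD27_KO value was the higher, by log2 0.53 (-0.10 to 1.21), an interval that includes 0. Both Th1-like clusters lay between 5.65 and 13.1 CPM, and the naive-like cluster at 3.05 and 4.42. In cluster 2, led by P2rx7, Areg was seen in 0 of 155 WT cells, which allows a share of up to 2.35%, and in 0.575% of 1564 CD27_KO cells.

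**Figure D4:**
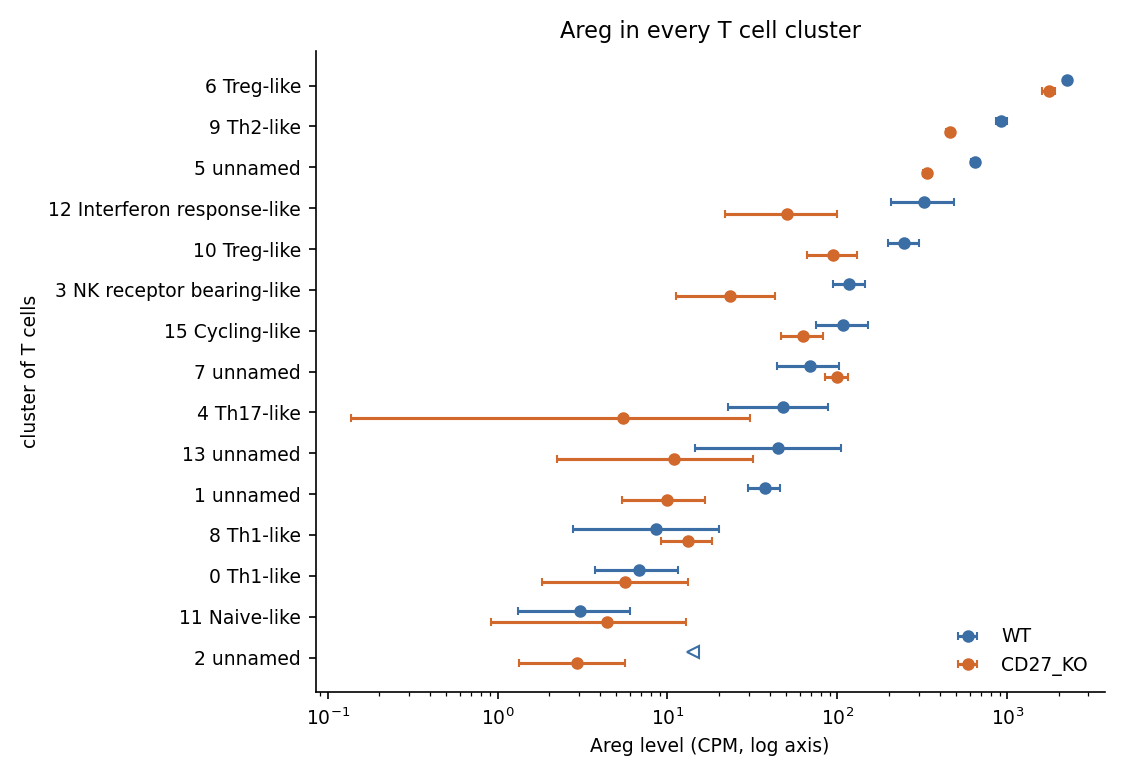
Areg level (CPM, log axis) in each T cell cluster by library, in the order of the WT level, with exact 95% intervals for counting error; the open triangle marks the upper limit of a cluster with no Areg UMI. Treg-like cluster 6 (2235 and 1752), Th2-like cluster 9 (920 and 457) and unnamed cluster 5 (641 and 339) hold the first places in both libraries.

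In this clustering the Areg UMIs of the 2 libraries fell in different clusters. Treg-like cluster 6 held 59.5% of the WT and 14.6% of the CD27_KO Areg UMIs, in 741 and 117 cells. Th2-like cluster 9 held 9.14% of the WT and 39.3% of the CD27_KO Areg UMIs, in 300 and 1149 cells, and cluster 5 held 26.2% and 36.7%. The clustering used Cxcl2, Il10 and other genes that were lower in CD27_KO, so the cell numbers and shares say only where this clustering put the cells.

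The Foxp3- Il1rl1+ cells were placed in several of these clusters. In WT, 348 of its cells (37.1%) fell in Treg-like cluster 6 and carried 54.3% of its Areg UMIs, while 235 (25.1%) fell in the Th2-like cluster and carried 16.5%. In CD27_KO, 28 cells (1.61%) fell in cluster 6 and carried 6.48%, and 978 (56.4%) fell in the Th2-like cluster and carried 58.1%. Inside cluster 6 the Foxp3- Il1rl1+ cells were at 2270 (2169 to 2375) CPM in WT and 2208 (1861 to 2601) in CD27_KO. The CD27_KO value rests on 143 UMIs, 60.8% of them in 5 cells, against 10.8% in WT. Without the 5 highest cells of each library the levels were 2082 and 1047. Those 5 are a larger part of the 28 CD27_KO than of the 348 WT cells. Without the highest 10% of cells the levels were 1465 and 1390, a log2 difference of -0.08 (-0.42 to 0.25). Inside the Th2-like cluster the Foxp3- Il1rl1+ cells were at 973 and 476, a log2 difference of -1.03 (-1.17 to -0.89). It was -0.68 without the 5 highest cells and -1.89 without the highest 10%. Those 10% were 24 WT and 98 CD27_KO cells, where 73 and 189 were Areg-positive.

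**Figure D5:**
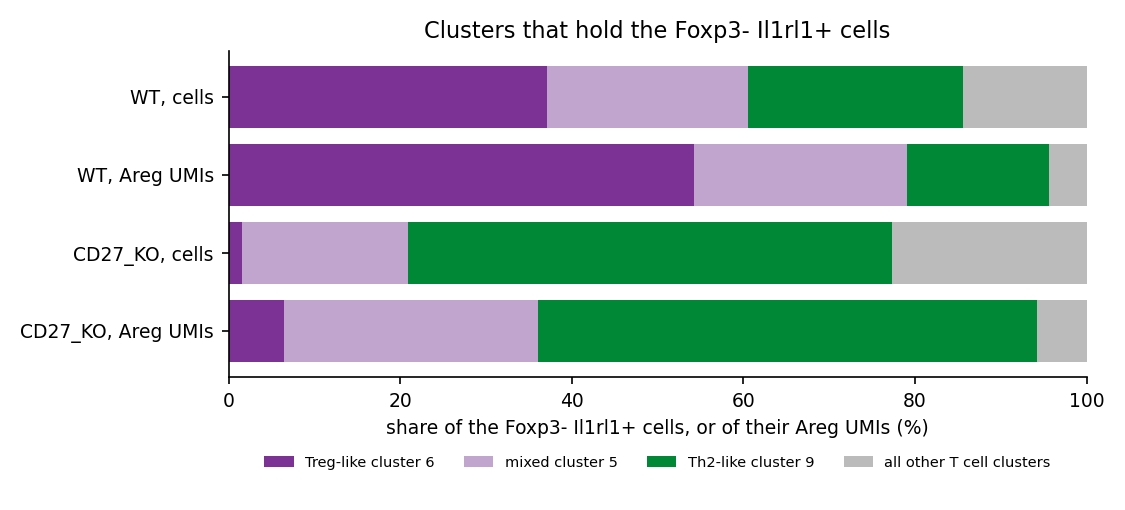
Share (percent) of the Foxp3- Il1rl1+ cells, and of their Areg UMIs, that fell in Treg-like cluster 6, mixed cluster 5, Th2-like cluster 9 and all other T cell clusters, by library. The clusters were built with genes that differ between the libraries; cluster 6 holds 37.1% of the WT cells with 54.3% of the UMIs and 1.61% of the CD27_KO cells with 6.48% of the UMIs.

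In the Treg-like cells that bear Il1rl1 the difference between the libraries changed when the cells with most Areg UMIs were left out. Il1rl1-positive cells of cluster 6 had 2311 CPM of Areg in 574 WT cells and 2222 in 63 CD27_KO cells, a log2 difference of -0.06 (-0.21 to 0.09). An Areg UMI was in 72.6% and 71.4% of them, with a mean of 9.23 and 9.18 and a median of 6 and 4 UMIs in a positive cell. The 5 cells with most Areg UMIs held 7.0% of the UMIs in WT and 46.5% in CD27_KO. Without those 5 cells of each library the levels were 2196 and 1326, a difference of -0.73 (-0.93 to -0.53), and without the highest 10% of cells it was -0.42 (-0.64 to -0.20). Foxp3+ Il1rl1+ cells of cluster 6 were at 2353 in 226 WT cells and 2229 in 35 CD27_KO cells, a difference of -0.08 (-0.27 to 0.11). Here 5 cells held 12.8% of the WT and 65.9% of the CD27_KO UMIs, with medians of 8 and 4 UMIs in a positive cell. The difference was -1.28 (-1.60 to -0.98) without the 5 highest cells and -0.63 (-0.92 to -0.34) without the highest 10%. These sets without their highest cells were chosen after the values were seen. The 5 cells are a larger part of the 63 and 35 CD27_KO cells than of the 574 and 226 WT cells. Leaving out 5 therefore does not trim the 2 libraries alike. Leaving out 10% takes the same share of all cells, but not of the Areg-positive cells. Il1rl1-positive cells of Treg-like cluster 10, 16 in WT and 11 in CD27_KO, were at 997 and 209 CPM, a difference of -2.26 (-3.98 to -0.88). That rests on 31 UMIs in 7 WT cells, with 20 in the highest cell, and on 5 UMIs in 3 CD27_KO cells. Il1rl1-negative cells of cluster 6 were at 1843 and 968, a difference of -0.93 (-1.24 to -0.63). In the 2936 genes compared in cluster 6, 6.61% were at least 1.5-fold lower in CD27_KO, and Areg was at rank 428 from the lowest and not among them. In the Th2-like cluster 111 of 4311 genes (2.57%) were at least 1.5-fold lower, with Areg at rank 26.

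With each cluster given the same share of cells in both libraries, the log2 difference over all T cells was -0.70, against -1.53 for the same mean per cell as the cells fell. Within Foxp3+ Il1rl1+ cells it was -0.29 against -0.96, and within Foxp3- Il1rl1+ cells -0.57 against -1.96. The weighting by cluster was chosen after the values by cluster were seen, and it depends on where the clustering put the cells. With the 4 transcript sets, and not the clusters, given the same share, the difference over all T cells was -1.58.

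The Foxp3- Il1rl1+ cells were also split by type 2 cytokine transcripts, which stood to Areg differently in the 2 libraries. Cells with an Il5 or Il13 UMI, the cytokines of eosinophil and mucosal type 2 responses, had 1307 CPM of Areg in 68 WT cells and 788 in 145 CD27_KO cells, a log2 difference of -0.73 (-0.93 to -0.53). Cells with none of Il4, Il5 and Il13 had 1185 and 267, a difference of -2.15 (-2.25 to -2.05). These sets were not weighted by cluster, and Treg-like cluster 6 held 37.1% of the WT and 1.61% of the CD27_KO Foxp3- Il1rl1+ cells. Cells with Il4, the Th2 cytokine that was 4.97-fold higher over all CD27_KO T cells, had 522 and 386, a difference of -0.44 (-0.70 to -0.16). In CD27_KO the 54 cells with Il13 were the highest of these, at 1286 against 296 in cells without it. In WT the 22 cells with Il13 were at 1593 against 1127. Levels with and without Il5 in WT were 1244 and 1132, a log2 difference of 0.14 (-0.06 to 0.33). Levels with and without Il4 were 522 and 1196 in WT, and 386 and 309 in CD27_KO. Within the Th2-like cluster Il5 was at 175 and 60.3 CPM, Il13 at 125 and 38.1, and Il4 at 87.4 and 168, so Areg was lower there beside Il5 and Il13 and opposite to Il4.

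How Areg stood to Cd27 transcripts within WT depended on the measure. Among WT Foxp3+ Il1rl1+ cells, 77.6% of those with and 68.3% of those without a Cd27 UMI had an Areg UMI, while the levels were 1266 and 1736 CPM. Thinned to 1300 UMIs per cell, the shares were 57.1% and 55.3%. Among WT Foxp3- Il1rl1+ cells the shares were 52.4% and 47.9% and the levels 1015 and 1205. The levels were the lower ones in cells with Cd27, by log2 -0.46 and -0.25 in the 2 sets. Thinned, the shares of the second set were 39.7% and 39.2%. Cells with Cd27 were deeper in both sets, at a median of 5024.5 against 3223.5 UMIs in the first and 3732 against 2276 in the second.

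Areg-positive cells were compared with Areg-negative cells of the same set in each library, to see what else they carried. In Foxp3+ Il1rl1+ cells 4.46% of 2711 genes were at least 1.5-fold higher in WT Areg-positive cells and 1.92% of 1664 genes in CD27_KO ones. Of the 1663 genes measured in both, 8 (0.481%) were higher in both libraries. They were Atf3, a stress-induced factor that binds cyclic AMP response elements, Hilpda, a lipid droplet protein induced by low oxygen, Dgat1, an enzyme of triglyceride synthesis, Gadd45b, a stress-response protein, Ptpn13, a phosphatase, Spty2d1, Fosl2, an AP-1 subunit, and Lmo4. Atf3 was higher by log2 1.05 in WT and 1.35 in CD27_KO, Hilpda by 0.91 and 0.82, and Gadd45b by 0.75 and 0.77. Only Ndufs6, a subunit of respiratory complex I, was lower in both, by log2 -0.59 and -0.70. Other than Fosl2, these genes were named after their values were seen. Of the 12 listed regulators, 10 were measured in WT and 7 in CD27_KO. Called higher were Fosl2 and Nr4a1 in WT, and Fosl2 and Crem, the cyclic AMP response element modulator gene, in CD27_KO. Crem was not past 1.5-fold in WT, and Creb1 was called in neither library. Foxp3 itself was at log2 -0.20 and 0.05 and Gata3 at 0.08 and 0.48, all within 1.5-fold. Il1rl1 was at 0.25 in WT and 0.66 in CD27_KO, and Il2ra, the high-affinity IL-2 receptor chain, at 0.49 and 0.80, both past 1.5-fold in CD27_KO.

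In Foxp3- Il1rl1+ cells of the Th2-like cluster 4.12% of 753 genes were at least 1.5-fold higher in WT Areg-positive cells and 2.01% of 3326 genes in CD27_KO ones. The genes higher in both were 3 of 753 (0.398%). They were the chemokine gene Ccl5 (log2 1.55 and 1.28, named after its value was seen), Calca, which encodes calcitonin gene-related peptide (1.43 and 1.19), and the neutrophil chemokine gene Cxcl2 (0.88 and 1.89). In the Foxp3+ Il1rl1+ cells above, Cxcl2 was at 0.93 in WT and 0.58 in CD27_KO. Il5 was at 1.38 in WT and -0.56 (-1.21 to 0.04) in CD27_KO Th2-like cells, an interval that includes 0. In CD27_KO, cells of that cluster with 1 Il5 UMI had 845 CPM of Areg and those with none had 406, and over all Foxp3- Il1rl1+ CD27_KO cells the levels with and without Il5 were 717 and 298. Median depth was 2445 against 2138 UMIs in the WT and 2820 against 2471 in the CD27_KO Th2-like cells with and without Areg.

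Other members of the EGF family gave few or no UMIs in these cells. Of 11 ligand genes only Areg reached 100 UMIs. Ereg and Epgn, which lie next to Areg on chromosome 5 and encode epiregulin and epigen, had 0 UMIs among all barcodes of both libraries. Over all T cells Btc (betacellulin) had 11 UMIs in WT and 8 in CD27_KO, Hbegf 21 and 19, Egf 12 and 27, Nrg2 29 and 20, and Tgfa 4 and 8. Of the receptors, Egfr had 3 and 7 UMIs and Erbb3 32 and 38, while Erbb2 and Erbb4 had none. The genes that release the ligand were present: Adam17 was at 18.6 and 22.4 CPM, its relative Adam10 at 48.2 and 57.2, and Frmd8, a partner of the ADAM17 complex, at 43.8 and 47.1. None of the 4 release genes with 100 UMIs was past 1.5-fold, at a median gene of log2 0.17.

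Areg lies in a stretch of chromosome 5 with the CXC chemokine genes, and these were compared as neighbours. Cxcl2, which starts 236 kb before Areg, had 875 CPM in WT and 153 in CD27_KO T cells, a log2 difference of -2.52 (-2.58 to -2.46). Cxcl1, at 248 kb, had 139 and 2 UMIs, a difference of -6.44 (-9.50 to -4.56), and Cxcl3, at 353 kb, had 268 and 55 UMIs, a difference of -2.61 (-3.05 to -2.18). Ereg and Epgn, at 65.0 and 112 kb, lie between Cxcl2 and Areg and had no UMI. Rchy1, a ubiquitin ligase gene 809 kb beyond, was at 70.3 and 74.0, a difference of 0.07 (-0.04 to 0.19). Of the 11 neighbours on the list, 4 had 100 UMIs and 3 of those were at least 1.5-fold lower, beside 2.86% of all 9754 genes.

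Genes of the signals and factors around Areg lay on both sides over all T cells, where 2.86% of all 9754 genes were lower and 7.02% higher and the median gene was at log2 0.17. Of 8 alarmin and cytokine receptor genes, 7 had 100 UMIs. Past 1.5-fold on the higher side in CD27_KO were Il1rap, the co-receptor of ST2 (log2 0.77), and Il18rap of the IL-18 receptor (0.66). Il1rl1 itself was at 0.44, and no receptor gene was lower. Of 12 regulators, Gata3 (0.62), Pparg (0.75), Prdm1 (0.59) and Ahr (0.62) were higher and Irf4 (-0.91) was lower. Of 12 tissue Treg and type 2 genes, 6 were lower, among them Il10 (-2.56), which encodes an inhibitory cytokine, and Ikzf2 (-1.30), and Il4 (2.31) and Calca (1.25) were higher. In Foxp3+ Il1rl1+ cells none of the 6 receptor genes measured was past 1.5-fold.

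The genes whose levels followed Areg most closely over 29 sums of 1 cluster in 1 library, out of 8617 genes, were Cxcl2 (Pearson's r = 0.911), the leukotriene receptor gene Ltb4r1 (0.892), Il1rl1 (0.879), the integrin gene Itgav (0.878) and Tnfrsf4, which encodes OX40 (0.874). Swap70, Il2ra, Nfkbia, Pim1 and Ndrg1 followed, down to 0.842. The sums come from 2 libraries and share depth and clustering, so these values are a description only.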

How the data were processed

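The 2 libraries of single T cells (WT and CD27_KO, 1 each) were analysed. The authors deposited UMI count matrices for 3′ tags, made with Cell Ranger 6.1.1 per the file headers and aligned to mm10 per the submitters' processing notes; the labels name kit version 3.1 in one place and 2 in another. Barcodes under 500 genes or over 10% mitochondrial UMIs were dropped, leaving 6338 and 6853 cells. After scaling each cell to 10000 and taking logs, 2000 variable genes (without Areg, Cd27, and receptor, ribosomal, mitochondrial and sex-linked genes) gave 30 principal components, 20 neighbours and Leiden clusters at resolution 1 (scanpy 1.11.5). A cluster was named when at least 3 markers of a list were enriched 1.5-fold and the list's median reached the same fold, and left unnamed when another list reached 0.5 of it. Levels are summed UMIs as CPM with exact Poisson, Clopper-Pearson or conditional binomial 95% intervals. Genes named are Areg, fixed lists of its family, release, regulators and neighbours, and the 10 most similar genes. Calls need 100 UMIs and a fold of 1.5, with zeros set to 3 counts. Thinned shares and means are the expected values for 1300 UMIs per cell, leaving out 536 WT and 54 CD27_KO T cells. Calls and intervals were tested on simulated data. The gene, the lists and the cell sets were chosen with earlier results of these data known.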

Additional observations from a re-analysis of the deposited data

Results flagged for a closer look

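Areg UMIs were also found in clusters outside the T cells that the comparisons use. The plasmacytoid dendritic-like cluster held 129 Areg UMIs in WT, in 17 of 55 cells, and 17 UMIs in CD27_KO, in 3 of 27 cells. The macrophage and dendritic-like cluster held 103 UMIs in WT, in 20 of 52 cells, and none in 27 CD27_KO cells, which allows a share of up to 12.8%. The third such cluster, of stromal, mesothelial and endothelial-like cells, held none in 29 and 11 cells. In the clusters that held Areg UMIs, T cell transcripts were seen in both Areg-positive and Areg-negative cells, and more often in the Areg-positive ones. In the WT plasmacytoid dendritic-like cluster, Il1rl1 was seen in 88.2% of the Areg-positive and 26.3% of the Areg-negative cells, and Foxp3 in 47.1% and 10.5%, at median depths of 9477 and 4380.5 UMIs. In the WT macrophage and dendritic-like cluster, Cd3e was seen in 90% of the Areg-positive and 56.2% of the Areg-negative cells, and Cxcl2 in 80% and 18.8%. The part of doublets or free RNA in these UMIs was not tested.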

How the results depend on the processing

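All values here are log2 differences of CD27_KO over WT, in the order all T cells, Foxp3+ Il1rl1+, Foxp3+ Il1rl1-, Foxp3- Il1rl1+, Foxp3- Il1rl1- and gate shares made the same, and only those that moved beyond the counting interval are given. In 1 of the alternatives tried a sign turned: with the Treg gate set by Foxp3 or Ikzf2, cells with no gate transcript were at 0.17, while Foxp3+ Il1rl1+ cells were at -1.20, Foxp3- Il1rl1+ cells at -1.47 and equal gate shares at -1.28. Gates at 2 UMIs gave -1.05 over the cells left, then -0.57, -2.53, -1.65 and, with equal shares, -1.48. At least 1000 genes per cell gave -0.77 in Foxp3+ Il1rl1+, -1.54 in Foxp3- Il1rl1+ and -0.46 in Foxp3- Il1rl1- cells, and -1.18 with equal shares. The mean per cell gave -1.53 over all, -1.56 in Foxp3+ Il1rl1-, -1.96 in Foxp3- Il1rl1+ and -1.17 in Foxp3- Il1rl1- cells. Without ribosomal and mitochondrial UMIs all T cells were at -1.48. Centred on the median gene they were at -1.56, Foxp3- Il1rl1+ cells at -1.88 and Foxp3- Il1rl1- cells at -1.14. Without the 5 cells with most Areg UMIs, Foxp3+ Il1rl1+ cells were at -1.25 and Foxp3+ Il1rl1- cells at -2.45. Thinned to 1300 UMIs, gates included, the values were -0.82 in Foxp3+ Il1rl1+, -1.45 in Foxp3+ Il1rl1- and -1.16 in Foxp3- Il1rl1- cells, and -1.43 with equal shares. Thinned to 2000 UMIs they were -1.23, -0.35, -1.11, -1.57, -1.15 and -1.26. The share of cells with an Areg UMI gave -0.89, -0.39, -0.95, -1.32 and -0.50 for all T cells and the 4 gates, and the mean UMIs of positive cells gave -0.31, -0.10, -0.79, -0.23 and -0.26. Chosen after seeing the data, equal cluster shares gave -0.70, -0.29, -1.04 and -0.57 for all T cells and the first 3 gates, and leaving out cluster 5 gave -1.61 over all, -0.51 in Foxp3+ Il1rl1+ and -1.99 in Foxp3- Il1rl1+ cells. For the cluster with the highest Areg level, resolution 0.5 gave -1.27 in place of -0.35, with a cluster of 1354 WT and 499 CD27_KO cells. For the alternatives other than those whose construction changes the cells or the quantity, the cause was not tested. With 1 library per group no replicate could be left out. Areg shares near those of naive-like cells (0.611% and 0.315%) cannot be read as expression at this depth.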
